A study of Mus musculus with 8 samples.

Results

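The cytosolic ribosomal protein genes were examined in hippocampal RNA of SCID mice given FTY720 or saline. The members are all genes whose symbol in the array annotation has the form of a cytosolic ribosomal protein name (Rpl or Rps with a number, plus Rpsa, Rplp0 and Rplp2), and they number 48 of the 12393 genes tested. Of the 48, 26 encode proteins of the large ribosomal subunit and 22 encode proteins of the small subunit. A further 27 such genes, 21 of the large subunit (among them Rpl3, Rpl5, Rpl10 and Rplp1) and 6 of the small, were measured only by probe sets that the annotation also assigns to other genes, mostly pseudogenes, and these probe sets are described apart. The mitochondrial ribosome has its own set of proteins and is not part of the group.

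Ribosomes are built from ribosomal RNA and a fixed set of proteins, each needed about once per ribosome, so cells tend to make these proteins in step. The messenger RNAs of ribosomal proteins are short and abundant, and most begin with a run of pyrimidines, the terminal oligopyrimidine (TOP) tract, through which the mTORC1 kinase controls their translation. In neurons they are found in cell bodies and also in dendrites, where local protein synthesis is studied in relation to memory.

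The mice were male SCID mice aged 12 weeks, a strain without mature B and T lymphocytes, and all 8 went through contextual fear conditioning. The FTY720 group (mice 1, 4, 5 and 6) received FTY720, a sphingosine analogue also called fingolimod, by mouth in saline at 1 mg/kg on each of 3 days, and the vehicle group (mice 13, 14, 15 and 16) received saline by mouth on the same schedule. Tissue was collected 1 hour after the consolidation test, 17 hours after the last treatment, and RNA of every mouse was put on its own Affymetrix 3' array. Each group thus has n = 4 separate animals, and their number limits the precision. Levels are log2 values per probe set, a difference of 1 being a doubling, and array medians lay between 6.68 and 6.72. Of 14 markers of hippocampal principal neurons 11 were measured and 8 lay above the median level of all genes, 7.17, with Neurod6 at 10.49, Wfs1 at 9.87 and Zbtb20 at 9.90, while Prox1 (3.29), Camk2a (5.08) and Tdo2 (5.57) lay below it. The tissue is a mixture of cells, so fewer cells of a type and less RNA per cell cannot be told apart.

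The comparison of FTY720 with vehicle bears on RNA levels in the hippocampus after drug treatment and a memory test. Ribosomal protein genes differed little: the median log2 difference (FTY720 minus vehicle) was -0.043 over the 26 large subunit genes and -0.033 over the 22 small subunit genes, where that of all genes was 0.0072. No member passed the limma test with Benjamini-Hochberg adjustment over all genes (lowest adjusted p among the members 0.719, against 0.536 over all genes, and 0 genes, 0% of those tested, under 0.05). The group mean was lower in FTY720 mice for 21 of 26 large subunit genes and 19 of 22 small subunit genes, a share of 83.3% of the 48, where 46.5% of all genes had a lower mean. The counts were 15 of 26 and 15 of 22 with the Gapdh 5' to 3' control contrast (described below) in the fit, and 18 and 17 after quantile normalization. At an unadjusted p under 0.05, 3 members were lower (Rpl37, Rps20 and Rps27l) and 0 were higher, beside 2.78% and 3.86% of all genes. All 3 were measured by probe sets prone to cross-hybridisation. With such probe sets left out, 0 of 24 large and 0 of 19 small subunit genes were lower at that threshold. In 3 members (Rpl4, Rpl27a and Rps20) every FTY720 mouse lay below every vehicle mouse, and in 0 members above, beside 1.78% and 2.72% of all genes. These counts describe the list and were not tested, since all members come from the same 8 arrays and are not independent.

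**Figure D1:**
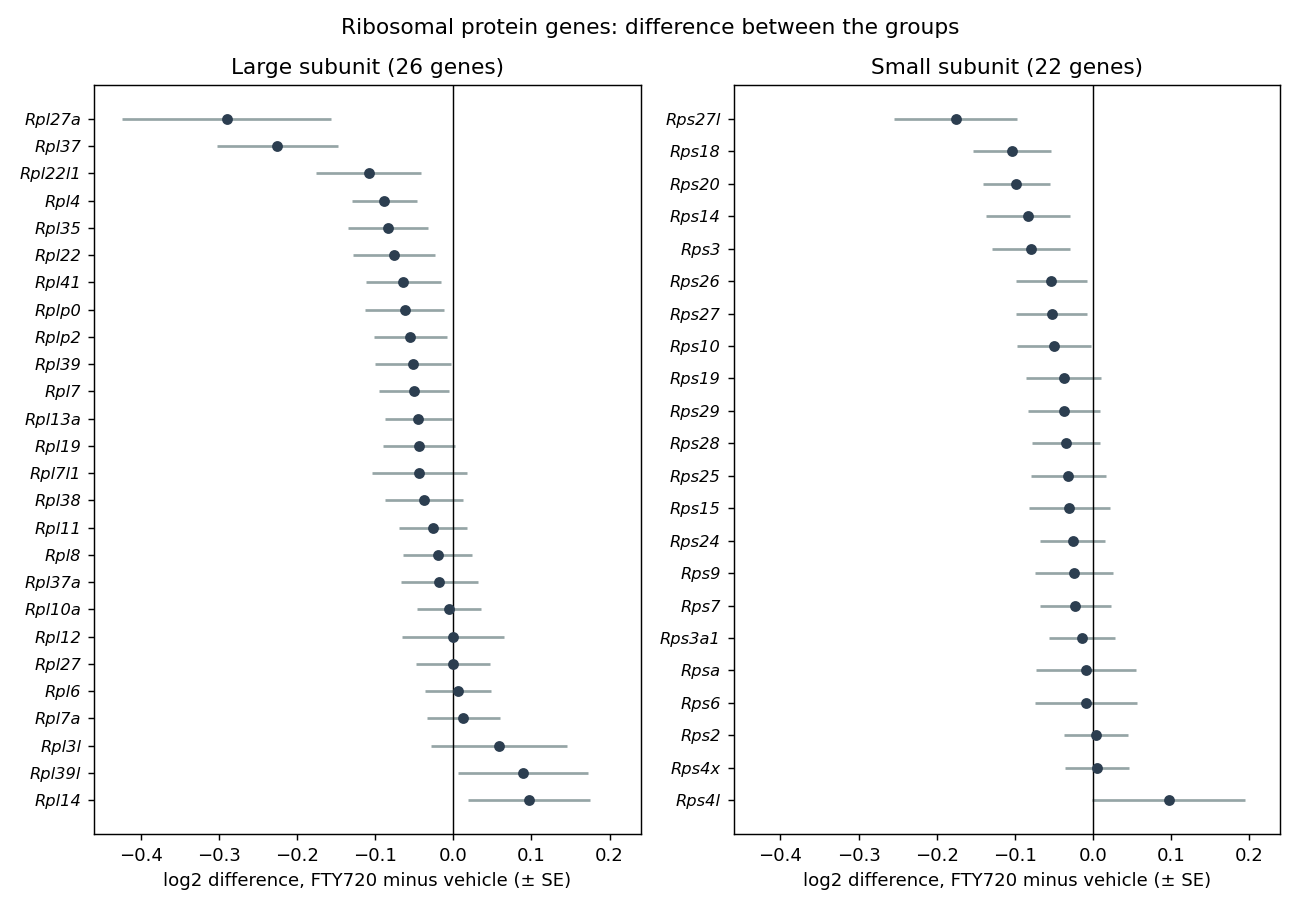
Log2 difference, FTY720 minus vehicle, of each of the 26 large subunit genes (left) and 22 small subunit genes (right), ordered by size. Points are differences of group means (n = 4 mice each) and bars are the SE of the limma fit. Rpl27a (-0.29), Rpl37 (-0.23) and Rps27l (-0.18) lie farthest to the left, and 25 of the 48 genes lie within 0.05 of 0. Of all 12393 genes tested, 5827 had a difference that close to 0.

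The members were bright on the arrays, with 41 of 48 above the median level of all genes and 33 above a level of 11. Those 33 ranged in difference from -0.11 to 0.013, and their median was -0.037. The other 518 genes above that level had a median of 0.012, and 41.5% of them had a lower mean in FTY720 mice, against 29 of the 33 members. In either direction, 3 of the 48 members (Rpl27a, Rpl37 and Rps27l) differed by more than 1.1-fold, beside 1651 of the 12393 genes tested. The SD between mice was small, with a median over members of 0.031 in FTY720 mice and 0.059 in vehicle mice, where all genes had medians of 0.081 and 0.10. It was larger among vehicle mice for 38 of the 48 members (79.2%), as it was for 63.0% of all genes.

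**Figure D2:**
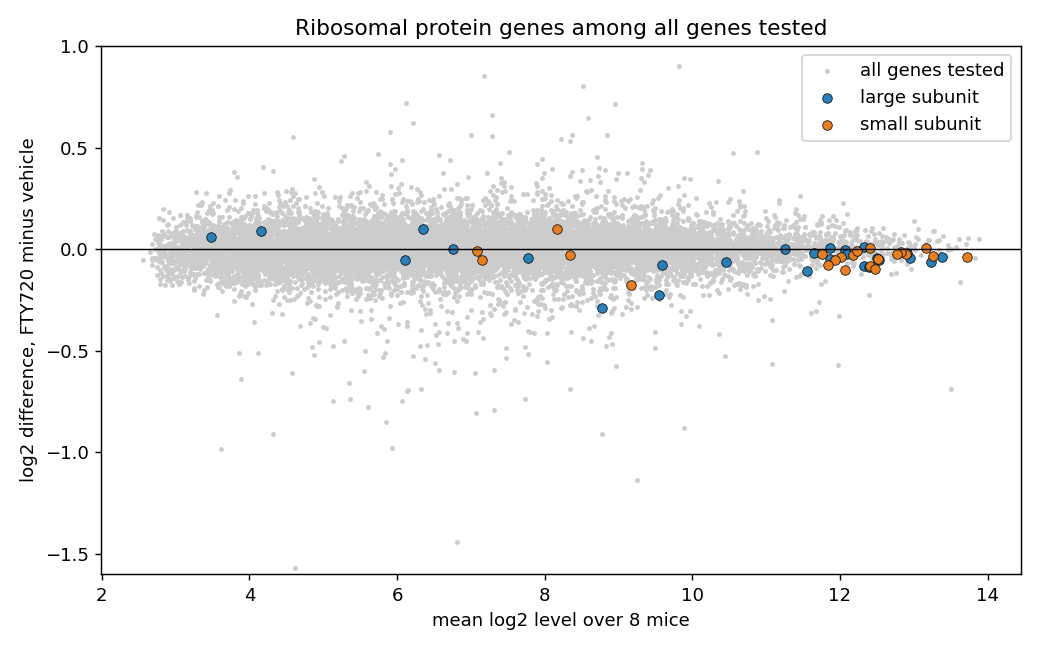
Log2 difference, FTY720 minus vehicle, against the mean log2 level over 8 mice for all 12393 genes (grey), large subunit genes (blue) and small subunit genes (orange). Most members lie at the bright end within 0.11 of 0, and Rpl27a (-0.29), Rpl37 (-0.23) and Rps27l (-0.18) lie below the others at intermediate levels.

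Among large subunit genes, Rpl37, which encodes a zinc-binding protein of the core of the subunit, had the smallest unadjusted p. Its levels were 9.41, 9.35, 9.46 and 9.51 in FTY720 mice 1, 4, 5 and 6 and 9.58, 9.50, 9.70 and 9.85 in vehicle mice 13, 14, 15 and 16. Vehicle 14 fell just under FTY720 6, and vehicle 15 and 16 were the highest of the 8. The difference was -0.23 (SE 0.08, unadjusted p = 0.0165, limma adjusted p = 0.719), and it was -0.11 without vehicle 15 and 16.

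Rpl27a encodes another core protein of the large subunit and had the most negative difference of the 48, -0.29 (SE 0.13, limma adjusted p = 0.753). Levels were 8.69, 8.57, 8.61 and 8.68 in FTY720 mice and 8.76, 8.80, 8.75 and 9.40 in vehicle mice. The groups did not overlap, but vehicle 16 stood far above the other 7 mice, and without it the difference was -0.13. The other probe set annotated to Rpl27a alone gave -0.018 (SE 0.10), and the one shared with 4 predicted genes gave -0.0069 (SE 0.045). The shared one was much brighter, at a mean level of 12.57 against 8.78 for the one used.

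Rpl4, whose protein lines part of the tunnel through which the new peptide leaves the ribosome, lay at 12.35, 12.37, 12.35 and 12.34 in FTY720 mice and at 12.44, 12.47, 12.43 and 12.42 in vehicle mice. The groups did not overlap and each was tightly spaced. The means were 12.35 ± 0.013 (SD) and 12.44 ± 0.023, a difference of -0.09 (SE 0.04, unadjusted p = 0.0594, limma adjusted p = 0.755), or 5.94% less. The fit used an SE larger than these spreads alone would give, because limma moderates each gene's variance toward that of all genes. The two-sided exact permutation p over the 70 assignments of mice to groups was 0.0286, the smallest that 4 against 4 mice can give. Groups without overlap always give this value, Rpl27a included, so it only restates the lack of overlap. It was not adjusted for the number of members. The difference of Rpl4 lay between -0.10 and -0.06 under all 19 alternative settings run.

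Rpl35, whose protein sits near the exit of the tunnel, had a lower mean in FTY720 mice on all 6 of its probe sets. The probe set used lay at 12.35, 12.22, 12.30 and 12.27 in FTY720 mice and 12.32, 12.40, 12.32 and 12.44 in vehicle mice, so the groups overlapped through FTY720 1 (difference -0.08, SE 0.05, unadjusted p = 0.132). The other 5 probe sets gave differences from -0.16 to -0.10, and 3 of them had an unadjusted p under 0.05 in a limma fit over all probe sets. All 3 were of the kind prone to cross-hybridisation. Those not of that kind gave -0.11 and -0.10 (unadjusted p = 0.0588 and 0.0943 in that fit), the latter at a mean level of 4.29. Adding the Gapdh contrast to the fit brought Rpl35 to -0.0029 and Rpl27a to -0.00042.

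The stalk proteins of the large subunit, which recruit the translation factors that use GTP, were represented by Rplp0 and Rplp2. Rplp0 lay at 10.41, 10.48, 10.45 and 10.39 in FTY720 mice and 10.49, 10.58, 10.44 and 10.46 in vehicle mice, with vehicle 14 highest. This gave -0.06 (SE 0.05), and -0.031 without vehicle 14. Rplp2 differed by -0.06 (SE 0.05), and its vehicle mice fell into a higher pair, 14 and 16 at 12.60 and 12.61, and a lower pair, 13 and 15 at 12.49 and 12.51, the latter within the FTY720 range. Rpl11, which together with Rpl5 binds the p53 regulator Mdm2 when ribosome assembly is disturbed, differed by -0.026 (SE 0.044). Rpl41, the shortest of the ribosomal proteins, differed by -0.06 (SE 0.05) and Rpl7 by -0.05 (SE 0.04). Rpl39, another short protein of the large subunit, differed by -0.05 (SE 0.05) and by -0.022 without vehicle 16, and its probe set shared with Gm32211 gave -0.11 (SE 0.06). The shared one was much brighter, at a mean level of 12.93 against 6.11 for the one used.

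Positive differences in the large subunit came from few genes. Rpl14, a protein of the subunit surface, lay at 6.52, 6.45, 6.36 and 6.26 in FTY720 mice and 6.45, 6.36, 6.24 and 6.16 in vehicle mice. The groups overlapped and the difference was 0.10 (SE 0.08, unadjusted p = 0.245). Its 5 other probe sets, which are shared with the pseudogene Rpl14-ps1, had values on the other side of 0, from -0.14 to -0.07. For Rpl14 the sign therefore differs between the probe set annotated to it alone and those shared with the pseudogene. The former was dim, at a mean level of 6.35, and the shared ones were bright, at 10.74 to 12.22. The remaining large subunit genes with positive differences were Rpl39l and Rpl3l, described below, with Rpl7a (0.013) and Rpl6 (0.0063).

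**Figure D3:**
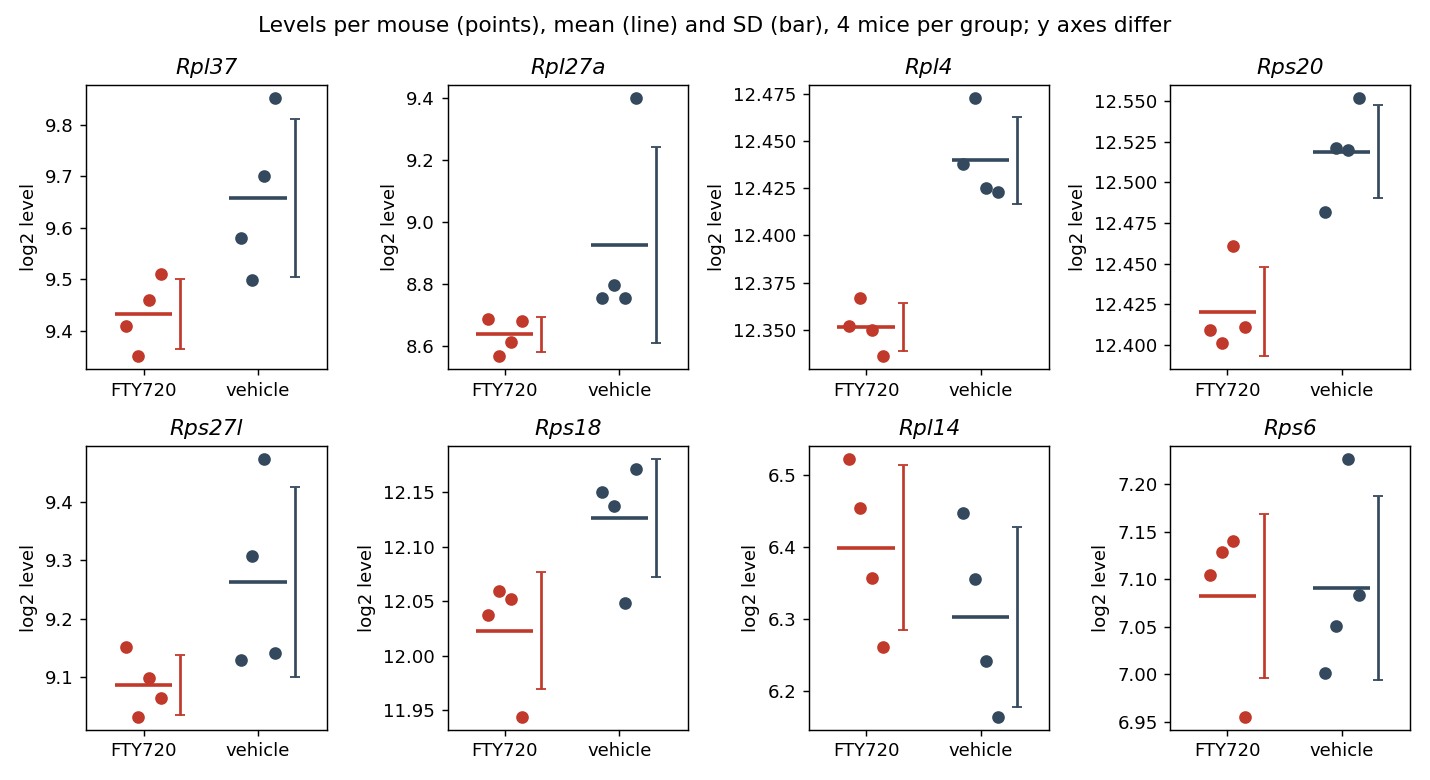
Log2 level in each mouse (points), with the group mean (line) and SD (bar), n = 4 per group, for 8 members; the y axes differ between panels. Rpl4, Rpl27a and Rps20 show no overlap between FTY720 (red) and vehicle (dark) mice, vehicle 16 is far above the rest for Rpl27a at 9.40, and the groups overlap for Rps6.

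Small subunit genes were led by Rps20, whose protein lies in the head of the subunit. Levels were 12.41, 12.40, 12.46 and 12.41 in FTY720 mice and 12.48, 12.52, 12.52 and 12.55 in vehicle mice, with no overlap. The difference was -0.10 (SE 0.04, unadjusted p = 0.0462, limma adjusted p = 0.746). Because the groups did not overlap, the exact permutation p was again the smallest possible, 0.0286. A second bright probe set gave -0.17 (SE 0.07) and a dim one -0.13 (SE 0.08). A further dim one gave 0.08 (SE 0.11), and this probe set was the one that represented the gene when probe sets prone to cross-hybridisation were left out.

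Rps18 encodes a protein of the subunit head at the contact with the large subunit, and all 6 of its probe sets had a lower mean in FTY720 mice. The one used lay at 12.04, 12.06, 12.05 and 11.94 in FTY720 mice and 12.15, 12.14, 12.05 and 12.17 in vehicle mice (difference -0.10, SE 0.05, unadjusted p = 0.0661). Vehicle 15 alone lay within the range of the FTY720 mice. Rps14, a protein of the platform of the subunit, differed by -0.08 (SE 0.05), with vehicle 14 and 16 highest at 12.49 and 12.56, and by -0.048 without vehicle 16. Rps3, which lies at the entry of the messenger RNA channel, differed by -0.08 (SE 0.05), again with vehicle 14 and 16 highest, both at 11.93.

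Rps6, the substrate of the S6 kinases and a common readout of mTORC1 activity as a phosphoprotein, was measured here as RNA alone. It lay at 7.10, 7.13, 7.14 and 6.96 in FTY720 mice and 7.0, 7.05, 7.23 and 7.08 in vehicle mice, with overlapping groups. The difference was -0.0086 (SE 0.065), and its sign changed in 6 of 18 alternative settings. The 9 probe sets shared with the pseudogene Rps6-ps4 ranged from -0.20 to 0.034. The brightest of them, at a mean level of 13.19 against 7.09 for the one used, gave 0.034 (SE 0.045). Rpsa, a ribosomal protein also known as a laminin receptor, differed by -0.0092 (SE 0.064), and Rps4x, encoded on the X chromosome, by 0.0047 (SE 0.041). Rps26, at the exit of the messenger RNA channel, stood at -0.05 (SE 0.05) and Rps10 at -0.05 (SE 0.05).

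Of the 48 members, 6 are paralogues that resemble another ribosomal protein gene. Their differences ran from -0.18 to 0.10, with 3 lower and 3 higher means, and 37 of the other 42 members had a lower mean. Rps27l, a paralogue of Rps27 known as a p53 target, lay at 9.15, 9.03, 9.10 and 9.06 in FTY720 mice and 9.13, 9.31, 9.47 and 9.14 in vehicle mice (difference -0.18, SE 0.08, unadjusted p = 0.0499, limma adjusted p = 0.748). Vehicle 15 was the highest and vehicle 13 and 16 lay within the FTY720 range, and without vehicle 15 the difference was -0.11. Its other probe sets gave -0.13 and -0.06.

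Rpl22l1 and Rpl22 are a paralogue pair in which the Rpl22 protein is known to restrain Rpl22l1 expression. Rpl22l1 lay at 11.45, 11.50, 11.49 and 11.53 in FTY720 mice and 11.53, 11.46, 11.76 and 11.66 in vehicle mice, highest in vehicle 15 and 16. The difference was -0.11 (SE 0.07), and -0.0018 without these mice. Rpl22 differed by -0.08 (SE 0.05), in the same direction as Rpl22l1, and was highest in vehicle 14, at 9.73. Any relation between the levels of the pair was not tested. Without vehicle 14 the difference of Rpl22 was -0.040. The second probe set of Rpl22 gave 0.00082 (SE 0.075).

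The other paralogues were Rpl7l1 (-0.04, SE 0.06), whose second probe set gave 0.10 (SE 0.05), Rps4l (0.10, SE 0.10), Rpl39l (0.09, SE 0.08) and Rpl3l (0.06, SE 0.09). On that second probe set of Rpl7l1 every FTY720 mouse (7.47 to 7.52) lay above every vehicle mouse (7.35 to 7.45). Its mean level was 7.45, against 7.78 for the one used. Rpl3l and Rpl39l, which are known for expression in muscle and in testis, had mean levels of 3.48 and 4.16, below the median of all genes. For Rps4l the FTY720 mice spread from 7.96 in mouse 4 to 8.49 in mouse 1, on both sides of all vehicle mice (8.04 to 8.18), and without FTY720 1 the difference was 0.0037.

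Ribosomal protein genes have many processed pseudogenes, and 102 probe sets were annotated to a ribosomal protein gene together with other genes, against 100 annotated to a member alone. In a limma fit over all probe sets, the shared ones had a median difference of -0.042, with 78 of 102 lower, and those annotated to 1 member alone had a median of -0.052, with 84 of 100 lower. The most negative shared values, named after they were seen, included 1 of 4 probe sets of Rps21 (-0.35, SE 0.14). That one had a mean level of 7.59, and the brighter others of Rps21 gave -0.08, -0.04 and -0.08. The probe set shared by Rpl37 and its retrotransposed copy Rpl37rt gave -0.22 (SE 0.07, unadjusted p = 0.00761), beside -0.07 and 0.0036 from 2 others of the same pair. The probe set shared by Rps27 and Rps27rt gave -0.21 (SE 0.06, unadjusted p = 0.00712), while the one annotated to Rps27 alone gave -0.05 (SE 0.05). The shared one was much brighter, at a mean level of 12.1 against 7.15. The most positive shared values came from dim probe sets. The one of Rps19 with Rps19-ps3 gave 0.16 (SE 0.06, unadjusted p = 0.0248) at a mean level of 4.63. The one of Rpl9 with Gm5451 gave 0.14 (SE 0.11) at 5.04. Rpl5, measured only together with Rpl5-ps2, gave -0.0084, 0.0046 and 0.09 from 3 probe sets, and Rplp1, together with Gm13777, gave -0.022 (SE 0.049). Among the 23 members with more than 1 probe set of their own, all probe sets had a lower mean in 14, all had a higher mean in 0, and the signs were mixed in 9.

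Some sequence features were more frequent at the start sites of the members than at all start sites, though each was found at a minority of them. In the RefSeq promoter table (build GRCm38.p6) 42 of the 48 members matched, with 50 start sites, each given as 250 bases before and 50 after the start. A TOP start, taken as a C at the first transcribed base followed by at least 4 pyrimidines on the sense strand, was found at 16% of the members' start sites (8 of 50) and at 2.51% of all 32851. A pyrimidine run of at least 8 bases within 15 bases of the start on either side was found at 38% (19 of 50) and at 12% of all. The motif CCGGAAG, searched on both strands over the 300 bases and known as a site of ETS factors such as GABPA, was found at 42% (21 of 50) and at 8.86% of all. These are matches of letters at annotated starts, which can lie some bases from the true start.

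The windows below show the 15 bases before and the 15 from the start onward, with the longest pyrimidine run in capitals. They are given for the matched members with the most negative differences, down to Rpl22, with both annotated starts of Rps27l and Rpl22, and then for Rpl14 and Rps6 as members with a positive and a near-zero difference.
Rpl27a: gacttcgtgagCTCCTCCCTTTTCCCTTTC
Rpl37: agTTTCCTgggcggaagcttatccacagga
Rps27l (first start): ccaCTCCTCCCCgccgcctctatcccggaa
Rps27l (second start): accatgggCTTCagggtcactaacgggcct
Rpl22l1: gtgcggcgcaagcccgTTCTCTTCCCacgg
Rps18: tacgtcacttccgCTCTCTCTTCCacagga
Rpl4: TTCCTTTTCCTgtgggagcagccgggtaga
Rpl35: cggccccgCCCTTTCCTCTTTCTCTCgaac
Rps3: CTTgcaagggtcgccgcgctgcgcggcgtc
Rpl22 (first start): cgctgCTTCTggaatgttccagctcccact
Rpl22 (second start): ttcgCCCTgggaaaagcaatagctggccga
Rpl14: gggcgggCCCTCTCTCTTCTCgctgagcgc
Rps6: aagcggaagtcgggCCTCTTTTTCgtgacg
They lie at chr7:109519180-109519209 (plus), chr15:5116598-5116627 (plus), chr9:66946071-66946100 (plus), chr9:66946398-66946427 (plus), chr3:28805493-28805522 (plus), chr17:33955651-33955680 (minus), chr9:64173372-64173401 (plus), chr2:39005117-39005146 (minus), chr7:99483695-99483724 (minus), chr4:152324421-152324450 (plus), chr4:152325711-152325740 (plus), chr9:120571502-120571531 (plus) and chr4:86857353-86857382 (minus), in the same order, plus and minus being the strand. Of these genes Rps18, Rpl35, Rpl14 and Rps6 have a TOP start at the annotated base, and Rps27l, Rpl22l1, Rpl4, Rpl37, Rps3, Rpl22 and Rpl27a do not. In Rpl27a the run spans the start but the first transcribed base is not C, and in Rpl22l1 the run begins 1 base after it.

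The 80 bases before the start of 3 members are shown for the ETS motif, in capitals.
Rpl37: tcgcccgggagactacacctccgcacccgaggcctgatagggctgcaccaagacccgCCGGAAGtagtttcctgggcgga
Rpl41: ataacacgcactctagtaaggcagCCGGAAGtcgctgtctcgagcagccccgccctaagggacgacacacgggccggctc
Rps10: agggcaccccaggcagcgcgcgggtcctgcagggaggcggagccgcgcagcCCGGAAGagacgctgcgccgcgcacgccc
They lie at chr15:5116533-5116612 (plus strand), chr10:128549169-128549248 (minus) and chr17:27635245-27635324 (minus). As a description with no test, the 8 members with a TOP start had a median difference of -0.052 (7 lower) and the 34 matched members without one had -0.031 (28 lower). The 21 members with CCGGAAG had a median of -0.044 (18 lower) and the 21 without it had -0.030 (17 lower). Both kinds thus held lower and higher genes, and Rpl14 and Rps6 had a TOP start with differences of 0.10 and -0.0086.

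The mean of the members also varied between mice of the same group. Relative to the mean of the 8 mice, the mean of the large subunit genes was -0.0048, -0.025, -0.031 and -0.026 in FTY720 mice 1, 4, 5 and 6, and -0.0011, 0.028, -0.0045 and 0.064 in vehicle mice 13 to 16. The mean of the small subunit genes was 0.0050, -0.023, -0.016 and -0.046 in FTY720 mice and -0.0051, 0.037, 0.0089 and 0.038 in vehicle mice. Vehicle 14 and 16 were the highest in both subunits, vehicle 13 and 15 lay next to FTY720 1, and the small subunit means of the groups overlapped. Of the 48 members, 19 had their highest level in vehicle 16 and 14 in vehicle 14, and 17 had their lowest in FTY720 6. These counts were not made over all genes, so they do not show a trait particular to the members. Without vehicle 14 the median difference of the large subunit was -0.027, and without vehicle 16 it was -0.029.

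**Figure D4:**
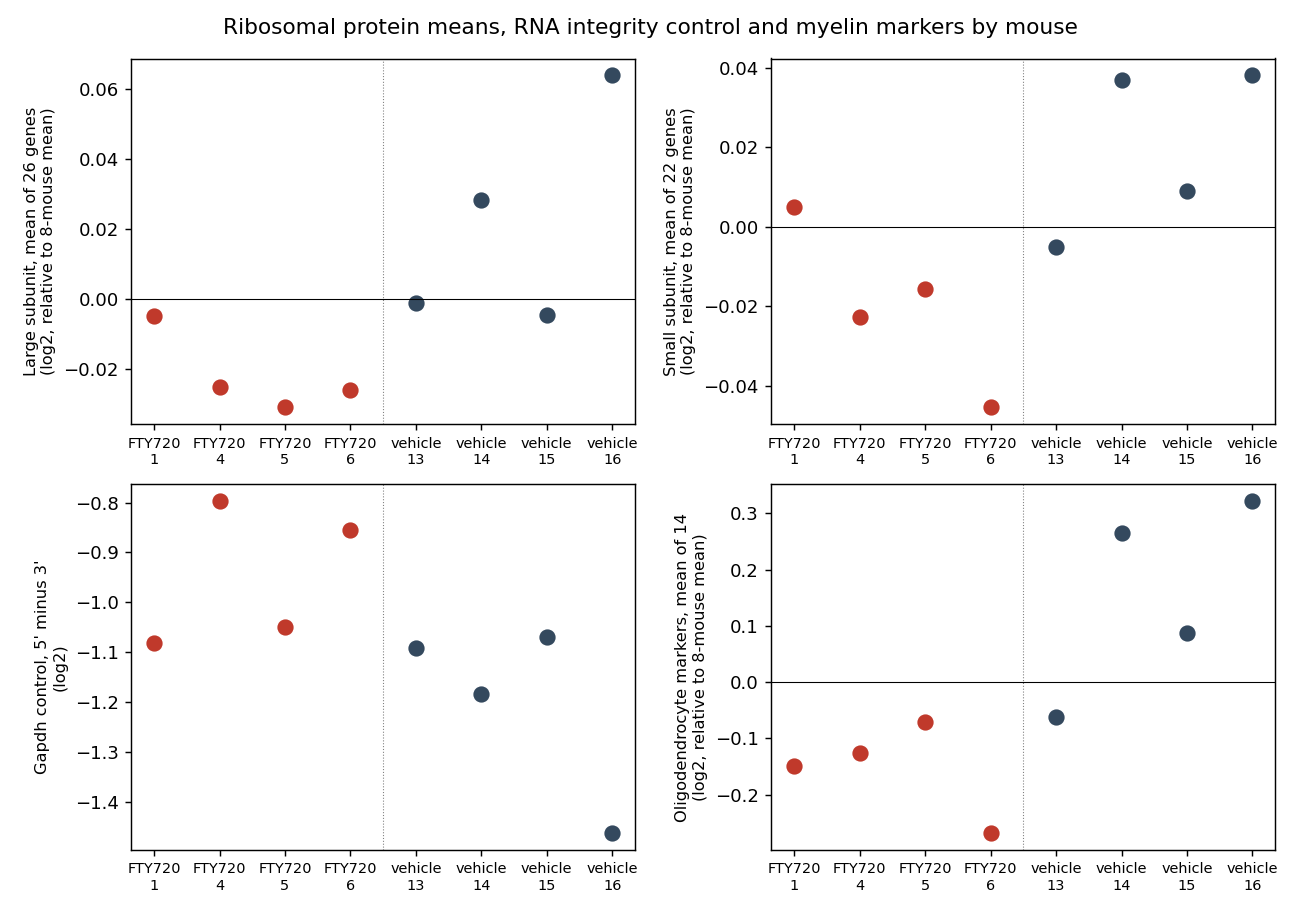
Values per mouse (FTY720 red, vehicle dark) of the mean of 26 large subunit genes, the mean of 22 small subunit genes, the Gapdh 5' minus 3' control difference and the mean of 14 oligodendrocyte markers, all in log2 units. Vehicle 14 and 16 are highest in both ribosomal panels and in the oligodendrocyte panel, and vehicle 16 has the lowest Gapdh value, -1.46.

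Control and cell type measures also varied between the mice, some in step with the ribosomal protein means and some not. The 5' probe set level of Gapdh less its 3' level, which falls as RNA integrity is lost, was -1.08, -0.80, -1.05 and -0.85 in FTY720 mice and -1.09, -1.18, -1.07 and -1.46 in vehicle mice, lowest in vehicle 16 and 14, the mice with the highest ribosomal protein means. The same measure of actin was also lowest in vehicle 16 and 14, at -2.74 and -2.52, and averaged -2.34 over the FTY720 group and -2.54 over the vehicle group. With the Gapdh measure in the fit, the median differences were -0.0057 for the large and -0.0098 for the small subunit. This Gapdh covariate is itself uneven between the groups (means -0.95 and -1.20). The actin measure was not used as a covariate. The level of the 18S ribosomal RNA controls was 12.00 in vehicle 16 and between 12.46 and 12.75 in the other 7 mice. All 14 measured of 18 listed oligodendrocyte markers had a lower mean in FTY720 mice, and their average relative to the 8 mice was between -0.27 and -0.07 in FTY720 mice and -0.06, 0.27, 0.09 and 0.32 in vehicle 13, 14, 15 and 16. All 9 measured thalamus and 8 striatum markers had a lower mean in FTY720 mice too, and both sets were highest in vehicle 15, at 1.53 and 1.38. The 8 choroid plexus markers also had lower means, with averages from -1.35 in FTY720 6 to 1.49 in vehicle 15, 0.97 in FTY720 1 and -0.98 in vehicle 16. These 3 sets did not follow the order of the ribosomal protein means. Microglia markers (11 of 12 measured, 7 with a lower mean) were highest in vehicle 14 and 16, at 0.12 and 0.11, and lay between -0.07 and 0.027 in FTY720 mice and at -0.0069 and -0.12 in vehicle 13 and 15. The 11 markers of hippocampal principal neurons, 3 with a lower mean, averaged 0.23, 0.14, -0.26 and -0.27 in vehicle 13 to 16 and between -0.10 and 0.22 in FTY720 mice. The part of RNA integrity and of cell composition in the ribosomal protein differences was not tested.

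**Figure D5:**
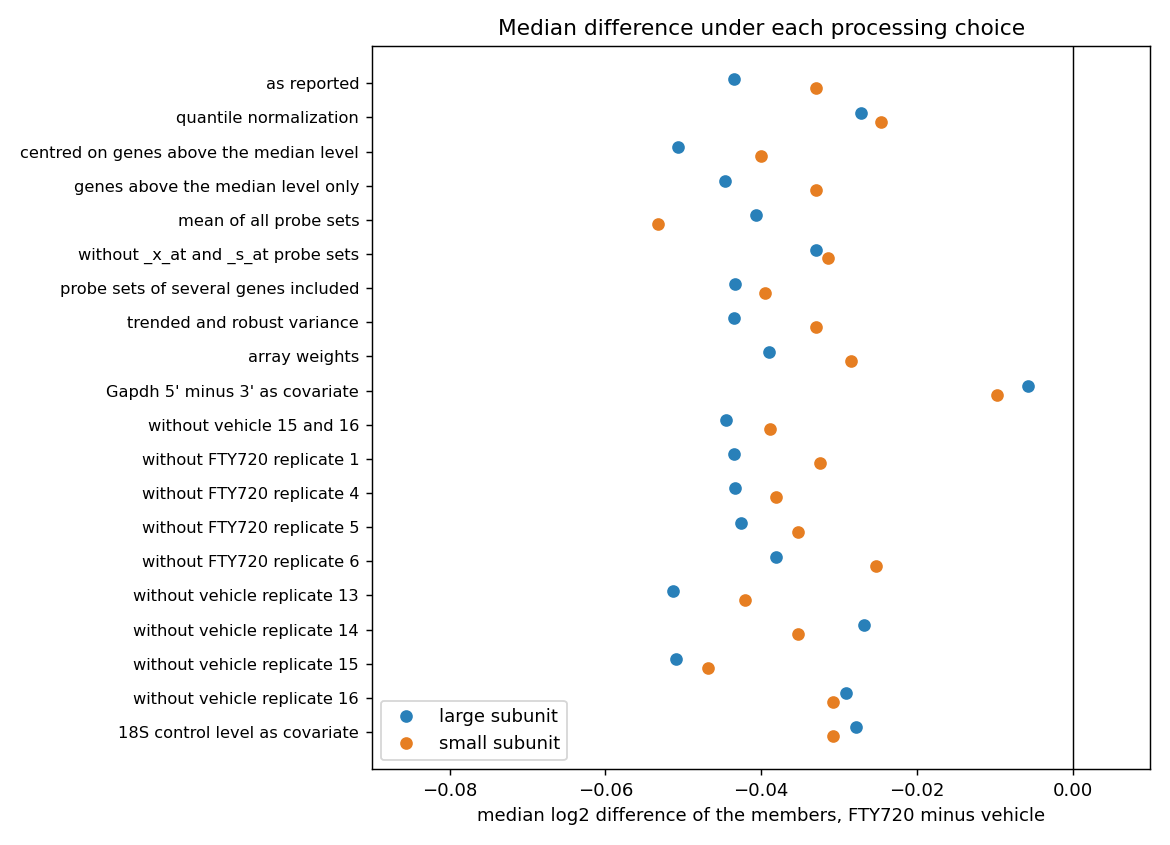
Median log2 difference, FTY720 minus vehicle, of the large subunit (blue) and small subunit (orange) genes as reported and under 19 alternative processing choices. All medians lie below 0, from -0.051 to -0.0057 for the large and from -0.053 to -0.0098 for the small subunit, and the Gapdh covariate brings both closest to 0. The number of genes per subunit changes with the level filter, without cross-hybridising probe sets and with shared probe sets.

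Other lists of genes of protein synthesis had medians between -0.010 and 0.021, beside 0.0072 for all genes. Fau, which encodes a small subunit protein fused to a ubiquitin-like domain, was the 1 measured ribosomal protein gene with another style of symbol and differed by -0.07 (SE 0.05). Elongation factors and other messenger RNAs known to carry a TOP tract had a median of -0.010 (17 genes, 11 lower), with Eef1d, an exchange factor for the elongation factor that delivers transfer RNA, at -0.12 (SE 0.06) and Nap1l1, a histone chaperone, at -0.08 (SE 0.06). Initiation factors stood at a median of 0.016 (28 genes, 13 lower), with Eif3k at -0.07 (SE 0.05) and Eif5a at 0.06 (SE 0.05). Ribosome assembly factors and RNA polymerase I genes stood at 0.015 (58 genes, 23 lower), with the ribosomal RNA methyltransferase Dimt1 at 0.11 (SE 0.04) and the assembly kinase Riok2 at -0.14 (SE 0.06).

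Genes of mTORC1 signalling, S6 kinases and regulators of TOP messenger RNAs had a median of 0.017 (26 genes, 10 lower). Among them Rps6ka3, a kinase of the MAP kinase pathway that can phosphorylate Rps6, differed by -0.27 (SE 0.10, limma adjusted p = 0.719), and Tsc1, an inhibitor of mTORC1, by -0.12 (SE 0.05). Mitochondrial ribosomal protein genes, built into a separate ribosome, had a median of 0.021 (74 genes, 28 lower), with Mrps23 at 0.16 (SE 0.05) and Mrpl52 at -0.16 (SE 0.06). In these lists too, no gene passed the limma test after adjustment over all genes, and the difference between any list and the cytosolic ribosomal protein genes was not tested.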

How the data were processed

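The deposited table holds log2 values per Affymetrix probe set; the log2 scale was read from the values, which run from 2.31 to 14.51. Per the submitters' processing notes Affymetrix Expression Console, MAS5 and RMA were used, but their roles, their versions, a genome build and any scan batch are not given in the sources used here. Array values of very bright probe sets can be compressed, and 33 members lie above a level of 11. Labels' protocols give 100 ng of total RNA per mouse.

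Of 22690 probe sets, 20380 had 1 gene symbol, 691 several and 1619 none (64 controls included). Each gene took its probe set of highest mean among those annotated to it alone. FTY720 and vehicle were compared with limma 3.58.1 in R 4.3.3 (lmFit, eBayes, no covariate, 8 arrays), with no further normalization or filter; SE values are moderated, and p-values measure the spread between mice. The fit was tested on simulated data. The replicate numbers differ between groups, so nothing pairs the mice. Members and lists were chosen with earlier results of these data known.

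Named members are, per subunit, the 8 of smallest unadjusted p and the 2 of largest difference in each direction, plus stalk genes, Rpsa, Rps6, Rpl11 and paralogues with their parents, and the 2 genes of smallest p in each other list. Alternatives covered normalization, centring, a level filter, probe set choice, variance models, covariates and leaving out mice; the 18S covariate was added after the data were seen.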

Additional observations from a re-analysis of the deposited data

Results flagged for a closer look

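In 3 named members 1 mouse stood apart from the other 3 of its group by Dixon's criterion, out of 60 groups of 4 examined, where chance gives about 1 in 20. Rpl27a was 9.40 in vehicle 16, with the other vehicle mice between 8.75 and 8.80. Rps14 was 12.41 in FTY720 1, with the other FTY720 mice at 12.36. Rps20 was 12.46 in FTY720 5, with the others between 12.40 and 12.41.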

How the results depend on the processing

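The number of genes at a limma adjusted p under 0.05 was 0 in all 19 alternatives, 18 of them planned, while at an unadjusted p under 0.05 the reported fit had 345 lower and 478 higher genes. The medians of both subunits stayed below 0 in all 19; with the Gapdh 5' minus 3' covariate they were -0.0057 (large) and -0.0098 (small). Leaving out each mouse gave -0.051 to -0.027 for the large and -0.047 to -0.025 for the small subunit. The count of genes lower at an unadjusted p under 0.05 ranged from 0 to 4 (large) and 0 to 5 (small). The 5 was reached with shared probe sets included, which added genes that are not members. The lists then held 47 large and 28 small subunit genes. They held 21 and 20 above the median level, and 24 and 19 without cross-hybridising probe sets.

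Of 28 named members, 19 kept their sign in every alternative that gave a value. The sign turned with the Gapdh covariate for Rpl11 (0.013), Rpl39 (0.0031), Rps14 (0.00086) and Rpsa (0.068), and with the 18S covariate for Rpsa (0.00049). It turned with the mean of all probe sets for Rpl7l1 (0.028), Rps6 (0.012) and Rpsa (0.033), without cross-hybridising probe sets for Rps20 (0.082), and with shared probe sets for Rpl14 (-0.10) and Rps6 (0.034). It also turned for Rps4x when centred on brighter genes (-0.0024), for Rps6 with array weights (0.043), and without vehicle 15 and 16 for Rpl14 (-0.0028) and Rps6 (0.056). Leaving out each mouse gave -0.0036 to 0.010 for Rps4x, -0.038 to 0.037 for Rps6 and -0.059 to 0.023 for Rpsa. Without vehicle 16, Rpl14 was 0.05, Rps26 -0.035 and Rps27 -0.032. Without FTY720 6, Rps10 was -0.031 and Rpl39l 0.035. Leaving out each mouse gave -0.039 to -0.016 for Rpl11, -0.073 to -0.0026 for Rpl7l1 and 0.0087 to 0.13 for Rpl3l. The cause was not tested. No paired analysis was possible because the groups share no replicate number.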
